A study of Mus musculus with 3 samples.

Results

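The Stat genes described here are Stat2, Stat3, Stat4, Stat5a, Stat5b and Stat6, 6 of the 55536 Ensembl genes in the gene tables. They were taken from a list of symbols, each matched to its gene identifier through the target names of the deposited transcript tables, and all 6 were found. The libraries were 3 biological replicates of 1 group: primary macrophages of C57BL/6J mice grown from bone marrow, pretreated with Lipid A at 100 ng/ml over 12 h, rested after a wash for 12 h, and then restimulated at 100 ng/ml for 50 min. Lipid A, the membrane anchor of bacterial lipopolysaccharide, is sensed by Toll-like receptor 4. Ribosomal RNA was removed from the cytosolic RNA before sequencing, and every library came from cells that had met Lipid A in both rounds. The labels give no age or sex and carry the same donor entry, of the strain, for all 3 libraries. With no untreated or once-treated library, what can be compared is the level of each Stat RNA against the others and its spread between the replicates.

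STAT proteins are transcription factors that wait in the cytoplasm. When a cytokine binds its receptor, Janus kinases on the receptor phosphorylate them on a tyrosine, and the STAT proteins pair up, enter the nucleus and bind DNA. In macrophages, Stat2 carries type I interferon signals as part of the ISGF3 complex with Irf9, Stat3 carries interleukin-10 and interleukin-6 signals, Stat5a and Stat5b those of colony-stimulating factors, and Stat6 those of interleukin-4 and interleukin-13. Stat4 is best known as the interleukin-12 factor of T and NK cells.

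Depth ran from 47972048 to 54409437 expected counts over genes per library. The marker lists gave macrophage RNA and little else: all 8 macrophage markers reached 1 TPM in every library, with summed levels of 5269 to 6942 TPM, from Itgam at 38.0 ± 7.83 TPM to Lyz2 at 3417 ± 340 TPM (SD, n = 3 here and below). None of the 29 markers of T, NK, B, dendritic and fibroblast cells and of neutrophils reached 1 TPM. Among the highest of their lists were Camp of neutrophils at 0.153 ± 0.0737 TPM, Lck of T cells at 0.13 ± 0.114 TPM, Siglech of dendritic cells at 0.0933 ± 0.0208 TPM, Col1a2 of fibroblasts at 0.03 ± 0.03 TPM and Ncr1 of NK cells at 0.01 ± 0.01 TPM. TPM, a share of transcripts, divides by length and so allows genes to be compared within a library. It is taken over all RNA in the tables, and protein-coding genes held 33.3%, 26.1% and 37.0% of it in replicates 1, 2 and 3. For this reason replicates were compared in CPM, each gene's share of the counts after scaling by the trimmed mean of M-values (TMM). In such bulk RNA, fewer cells that hold an RNA and less RNA per cell cannot be told apart.

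Stat2, the STAT protein given over to type I interferon signals, was the most abundant of the 6 RNAs. It had 114, 99.9 and 194 TPM in replicates 1, 2 and 3, a mean of 136 ± 51.1 TPM. That placed it above 95.9% of the 9059 protein-coding genes with at least 1 TPM in every library. The RNA rested on 27383, 35161 and 48388 expected counts. Stat2 alone took 57.9%, 59.4% and 66.0% of the summed TPM of the 6 Stat genes. The gene lies on the forward strand at chr10:128270559-128292849 of mm10, and no other annotated gene overlaps it.

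Stat6 and Stat3 formed the middle of the family, at 17.8% ± 2.49 and 14.5% ± 1.34 of the summed TPM. Stat6, the factor of interleukin-4 receptor signalling, had 39.6, 30.2 and 44.8 TPM in replicates 1, 2 and 3, on 9642, 10662 and 11018 counts. Stat3, which relays interleukin-10 in macrophages, had 28.7, 26.45 and 38.5 TPM on 8007, 11196 and 11417 counts. The ranges of their levels overlapped between libraries, yet within every library Stat6 was above Stat3, by factors of 1.38, 1.14 and 1.16. Stat6 stands on the forward strand at chr10:127642986-127660957, on the same chromosome as Stat2 and 609601 bases from it, and its last 40 bases overlap Nab2 on the other strand. Stat3 stands on the reverse strand at chr11:100885098-100939540. How reads were assigned by strand is not given in the sources used here, so reads within such overlaps cannot be assigned to a strand with certainty.

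Stat5b and Stat5a, the near-identical pair of factors downstream of colony-stimulating factors, were lower by a wide margin. Stat5b had 8.57, 7.40 and 11.1 TPM, and Stat5a had 4.83, 3.81 and 5.12 TPM. Stat5b was the higher of the pair in every library, by factors of 1.77, 1.94 and 2.17, and its lowest value lay above the highest value of Stat5a. The counts behind these levels were 2913, 3600 and 3754 for Stat5b and 1129, 1246 and 1123 for Stat5a. Stat5b at chr11:100780731-100850724 on the reverse strand and Stat5a at chr11:100859351-100885169 on the forward strand lie 8626 bases apart, and the end of Stat5a overlaps the end of Stat3 by 72 bases.

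The coding sequences of the leading Stat5a and Stat5b transcripts were identical at 90.7% of 2346 aligned bases and shared an unbroken run of 324 bases. Every other pair of the 6 genes was identical at 56.2% to 65.1% of aligned bases, with no shared run over 23 bases. Reads inside the shared run cannot tell the genes apart, yet the posterior SD that the authors deposited with each expected count was only 4.53, 5.30 and 7.27 counts for either gene in replicates 1, 2 and 3. The genes part at the ends of their coding sequences, which are shown because reads there can be told apart. The last 60 coding bases are in lower case and the stop codon in capitals, read from the GENCODE M21 transcripts.
Stat5a-202: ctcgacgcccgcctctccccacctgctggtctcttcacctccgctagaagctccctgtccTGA
Stat5b-201: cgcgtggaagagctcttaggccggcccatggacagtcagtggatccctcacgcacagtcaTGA
The Stat5a stretch lies at chr11:100883934-100883996 and the Stat5b stretch at chr11:100783096-100783158.

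Stat4 was close to the limit of what was called expressed. It had 0.92, 0.35 and 0.80 TPM in replicates 1, 2 and 3 and was the only Stat gene below 1 TPM, which it was in all 3 libraries. On TPM rescaled to protein-coding genes it averaged 2.09, still the lowest of the 6. These levels rested on 134, 72.0 and 89.6 counts, and Stat4 gave 0.316% ± 0.136 of the summed TPM. The authors' deposited bounds of the Stat4 TPM, whose level of confidence is not given in the sources used here, were 0.735 to 1.28 in replicate 1 and 0.261 to 0.555 in replicate 2, and so did not overlap. T and NK cells are the usual source of Stat4. Of their markers, Cd3g, Trac and Gzma had no count in any library, while Lck had 7, 5 and 14 counts in replicates 1, 2 and 3. The T and NK lists summed to at most 0.31 and 0.05 TPM. Which cells held the Stat4 RNA was not tested. Stat4 spans chr1:51987148-52107189 on the forward strand and overlaps Gm28177 on the same strand over 29929 bases and the pseudogene Gm3940 on the other strand over 432 bases.

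**Figure D1:**
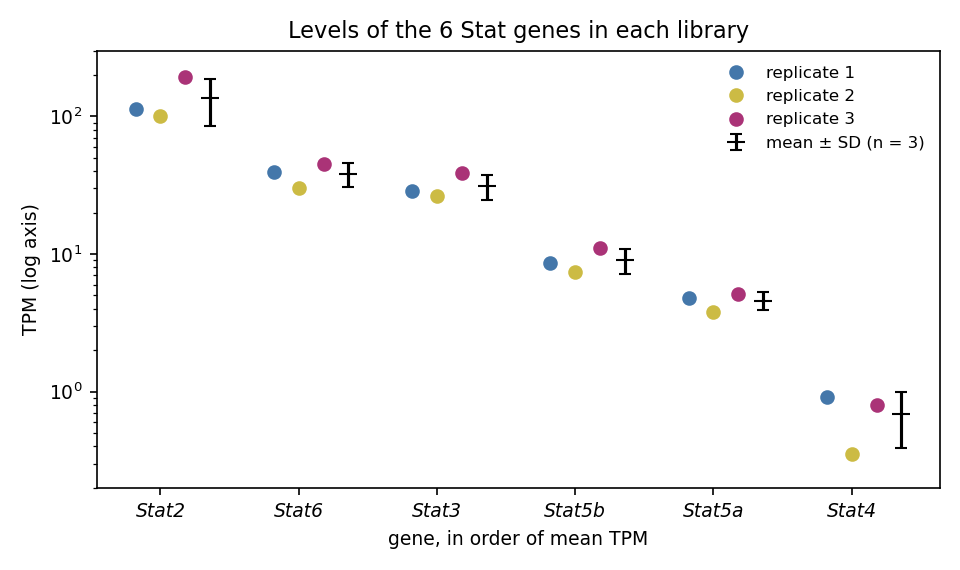
TPM of each Stat gene (log axis) in the 3 replicate libraries, with the mean and SD beside the points. The order Stat2, Stat6, Stat3, Stat5b, Stat5a, Stat4 held within every library, from 136 TPM for Stat2 to 0.69 TPM for Stat4 on average.

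Over the 15 pairs of Stat genes, the gene with the higher mean was the higher in 3 of 3 libraries in every pair. Neighbours in the order differed by 1.76 ± 0.30 for Stat2 over Stat6, 0.28 ± 0.15 for Stat6 over Stat3, 1.68 ± 0.04 for Stat3 over Stat5b, 0.83 ± 0.14 for Stat5b over Stat5a and 1.73 ± 0.12 for Stat5a over Stat4, as log2(TPM + 1) differences within a library. The step from Stat6 to Stat3 was the smallest, and in TPM of the second transcript table it shrank to 0.05. An exact two-sided sign-flip permutation test gave p = 0.25 for each pair, before and after Benjamini-Hochberg adjustment over 15 pairs. With 3 libraries 0.25 is the smallest p this test can give, so none of the pairs, neighbours included, could be called different.

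The spread between replicates was tested per gene by a chi-square of the counts against the library sizes, over the 13827 genes that averaged 10 counts or more. A gene was called where its p, adjusted over all of these by the Benjamini-Hochberg method, was under 0.05. Of these genes, 9736 or 70.4% differed between the libraries beyond counting error, and 5 of the 6 Stat genes did. That share is near the background for so few genes, and nothing is read from it about the family. The test asks about counting error in these 3 libraries only, not about a condition.

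Stat2 had the largest chi-square of the Stat genes. Its level was 537, 650 and 956 CPM in replicates 1, 2 and 3, a ratio of 1.78 between the highest and lowest library and a chi-square of 6693 on 2 degrees of freedom. The adjusted p was too small for the software to hold and is given by the chi-square alone. A ratio above that of Stat2 was found in 19.5% of tested genes, and the median ratio was 1.27. Replicate 3 stood apart for Stat2: without it the biological coefficient of variation estimated by edgeR was 0.144, against 0.222 with all libraries.

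Stat3, Stat5b and Stat6 were likewise lowest in replicate 1 and highest in replicate 3 in CPM, over smaller ranges. Stat3 had 157, 207 and 225 CPM in replicates 1, 2 and 3, a 1.44-fold range with an adjusted p of 4.15e-140. Stat5b had 57.2, 66.5 and 74.1 CPM, a 1.30-fold range with an adjusted p of 3.74e-24. Stat6 had 189, 197 and 218 CPM, a 1.15-fold range with an adjusted p of 1.48e-23. For Stat6 that range is below the median of tested genes, although the gene was called.

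The 4 genes Stat2, Stat3, Stat5b and Stat6 were called and highest in replicate 3, as 28.9% of tested genes were. Replicate 3 was also the highest for these genes with DESeq2 size factors, with total counts and in the deposited gene-table TPM, as it was for 36.9%, 22.6% and 51.6% of tested genes. In the second transcript table it was the highest for all 4 in CPM by TMM, as for 52.2% of tested genes. In the TPM of that table replicate 1 was the highest for all 4, but it was so for 97.0% of tested genes. Once that TPM was rescaled to coding genes, replicate 3 was the highest for Stat2, Stat5b and Stat6, as for 21.1% of tested genes, and replicate 2 for Stat3. The lowest library was replicate 1 in CPM by TMM and DESeq2 and replicate 2 in the deposited gene-table TPM, and replicate 2 for Stat6 with total counts. Stat4 alone was called and highest in replicate 1, as 20.1% of tested genes were. None of the Stat genes was called and highest in replicate 2, as 21.4% of tested genes were. Replicate 3 also had the largest coding share of TPM, and the part of that in these differences was not tested.

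Stat5a and Stat4 departed from that pattern. Stat5a had 22.2, 23.0 and 22.2 CPM in replicates 1, 2 and 3, a ratio of 1.04, and its adjusted p was 0.595. It was called only when libraries were scaled by total counts, with an adjusted p of 0.0258 and a ratio of 1.12. The low expression of Stat4, 2.63, 1.33 and 1.78 CPM in replicates 1, 2 and 3, gave a 1.98-fold range and an adjusted p of 1.58e-05. That call rested on replicate 1, since without it the ratio was 1.34 and the adjusted p 0.11. Stat4 was highest in replicate 1 and lowest in replicate 2 under all 8 scalings compared.

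The biological coefficient of variation is an edgeR estimate of the spread between replicates beyond counting error. It was 0.347 for Stat4, 0.222 for Stat2, 0.161 for Stat3, 0.127 for Stat6, 0.126 for Stat5b and 0.115 for Stat5a. The median over tested genes was 0.164, so Stat4 and Stat2 lay above it and the others below. Each estimate is drawn towards those of other genes, so it is not the gene's own spread alone. The SD of CPM over its mean, counting error included, was 34.5%, 30.3% and 18.0% for Stat4, Stat2 and Stat3. For Stat5b, Stat6 and Stat5a it was 12.9%, 7.28% and 2.23%. Stat5a was not called by the chi-square test, so its 0.115 is not read as spread of its own.

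**Figure D2:**
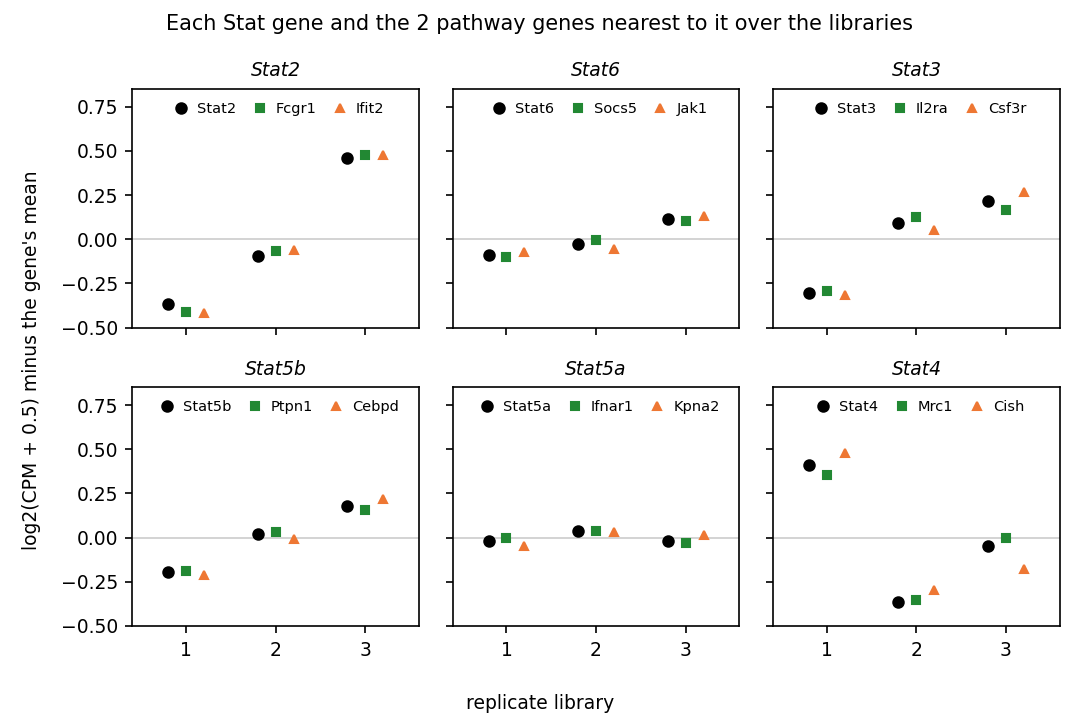
Deviation of log2(CPM + 0.5) from the gene's own mean in each replicate library, for each Stat gene (circles) and the 2 pathway genes nearest to it (squares and triangles). Stat2 lies at 0.46 in replicate 3 and -0.37 in replicate 1, whereas Stat5a stays within 0.04 of its mean.

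Among 120 tested genes of the JAK-STAT pathway lists, the 2 nearest to each Stat gene were found by the Euclidean distance between centred log2(CPM + 0.5) values over the 3 libraries. Nearest to Stat2 were the Fc receptor gene Fcgr1, at a distance of 0.05, and the interferon-induced gene Ifit2, at 0.06. For Stat3 they were Il2ra and Csf3r, for Stat6 the inhibitor Socs5 and the kinase Jak1, and for Stat5b the phosphatase Ptpn1 and Cebpd. Il2ra was low, at 0.569, 0.924 and 0.968 CPM in replicates 1, 2 and 3. It was not called by the chi-square test, with an adjusted p of 0.0696, so its pattern is not told from counting error. For Stat5a they were Ifnar1, a chain of the interferon receptor, and the importin Kpna2. Those of Stat4 were the mannose receptor Mrc1 and the feedback inhibitor Cish, at distances of 0.07 and 0.16. With 3 libraries such likeness is common: 30 other tested genes were as near to Stat2 as Fcgr1 was, and 418 were as near to Stat5a as Kpna2 was.

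The transcript tables list 41 transcripts of the 6 genes, 17 of them annotated as protein coding. By the mean share over libraries the same transcript led in both tables for each of the 6 genes, although for Stat4 it did not lead in every library. In the first transcript table Stat6-201 took 95.6%, 97.1% and 98.4% of the Stat6 TPM in replicates 1, 2 and 3, the most uniform use of a single form. Stat2-201 took 78.3%, 79.9% and 82.4% of the Stat2 TPM.

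The rest of the Stat2 level was mostly Stat2-206, a transcript of 736 bases with a retained intron at the 5′ end of the gene. It took 16.7%, 16.8% and 15.1% of the Stat2 TPM but only 695, 886 and 1101 counts, which were 2.54%, 2.52% and 2.28% of the gene's counts. Division by its short length raises its share of TPM above its share of reads. In counts, coding transcripts held 96.5%, 96.9% and 97.3% of Stat2.

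Stat3 was carried by Stat3-203, with 79.6%, 88.4% and 91.7% of its TPM in the first table and 58.9%, 77.0% and 86.8% in the second. Replicate 1 had the lowest share in both tables. In the second table the short noncoding form Stat3-214 of 651 bases made up part of the gap, at 17.0%, 7.61% and 3.82%. Retained-intron forms there took 14.3%, 7.40% and 2.38%. In the first table Stat3-214 took 2.09%, 0% and 0%, and retained-intron forms 7.52%, 3.67% and 1.45%. The 2.09% rested on 18.4 counts with a posterior SD of 22.2. The tables thus did not give the same make-up of Stat3 in any replicate, and the share of Stat3-203 differed most in replicate 1.

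Stat3-201, at 5.88%, 4.20% and 3.61% of the TPM in the first table, has the reading frame of Stat3-203 less 3 bases. Its sequence is set below that of Stat3-203 over the same coding stretch, at chr11:100889905-100893100 on the reverse strand with the intron removed, and the 3 bases that Stat3-201 lacks are in capitals.
Stat3-203: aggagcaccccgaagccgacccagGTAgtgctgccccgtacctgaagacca
Stat3-201: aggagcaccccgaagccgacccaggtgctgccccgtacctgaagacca

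Stat3-202 has the structure of the β form, which is known to lack the C-terminal activation segment of the protein. It splices out 50 bases that Stat3-203 keeps, and after that stretch its reading frame has 25 bases left, stop codon included, whereas that of Stat3-203 has 119 bases left. In the upper line below the capitals mark those 50 bases, and in the lower line they mark the stop codon that Stat3-202 reaches. The stretches begin at the same base and lie within chr11:100889516-100889909.
Stat3-203: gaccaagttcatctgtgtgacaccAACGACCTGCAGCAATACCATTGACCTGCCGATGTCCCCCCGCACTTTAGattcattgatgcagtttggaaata
Stat3-202: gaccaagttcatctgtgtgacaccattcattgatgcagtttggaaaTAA
Stat3-202 took 4.91%, 3.71% and 3.25% of the Stat3 TPM in the first table and 1.57%, 1.04% and 1.03% in the second, so it was a minor form in every library and in both tables. It fell below the 5% used for naming transcripts and is given because of its known role, after its values were seen. It is also the longest form, 6042 bases, and the only coding form named here that reaches the overlap with Stat5a.

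Stat5b-201 and Stat5b-202 have the same coding sequence of 2361 bases and begin 28196 bases apart. Stat5b-201, from the outer start, took 79.6%, 80.1% and 89.9% of the Stat5b TPM, and Stat5b-202 took 18.2%, 17.6% and 9.64%. In the second table the share of Stat5b-202 was 26.5%, 25.5% and 15.5%. Replicate 3 had the lowest share of the inner start in both tables.

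Stat5a-202 led Stat5a with 78.5%, 84.3% and 70.5% of its TPM, and Stat5a-203 took 11.0%, 4.72% and 15.6%. The posterior SD of their counts was 48.9, 58.6 and 82.9 for Stat5a-202 and 44.8, 56.9 and 78.4 for Stat5a-203, against 949, 1152 and 891 counts for Stat5a-202 and 128, 63.2 and 189 counts for Stat5a-203. The reads thus fixed the gene's total far better than its split into forms. The exon of 52 bases that Stat5a-203 lacks is in capitals between 12 coding bases of the neighbouring exons, from chr11:100881174-100882073.
Stat5a-202: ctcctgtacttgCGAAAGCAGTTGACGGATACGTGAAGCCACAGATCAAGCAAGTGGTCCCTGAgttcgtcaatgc
The short coding form Stat5a-206 of 617 bases took 5.80%, 9.45% and 11.9% of the TPM on only 7.79, 14.7 and 17.9 counts, and so was above Stat5a-203 in replicate 2. In the second table it was above Stat5a-203 in every library, at 13.4%, 15.5% and 19.6% for Stat5a-206 and 11.5%, 2.66% and 9.08% for Stat5a-203, while Stat5a-202 led with 64.8%, 77.7% and 67.0%.

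For Stat4 the forms could not be ranked. Stat4-202 had 106, 34.5 and 36.8 counts in replicates 1, 2 and 3, and Stat4-201, which has the same coding sequence and begins 21095 bases further in, had 21.4, 32.9 and 41.4 counts. Stat4-202 led by counts in replicates 1 and 2 and Stat4-201 in replicate 3, and the posterior SD of these counts was 12.6 to 14.7. Only in replicate 1 was the gap between them larger than those errors. In the second table Stat4-202 led in TPM in replicate 1 and Stat4-201 in replicates 2 and 3. The retained-intron form Stat4-204 took 17.4%, 22.2% and 44.3% of the TPM in the first table, the largest share in replicate 3, on 4.40, 3.31 and 9.96 counts, and Stat4-203 took 4.35%, 5.56% and 2.53% on 1.25 to 2.37 counts.

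**Figure D3:**
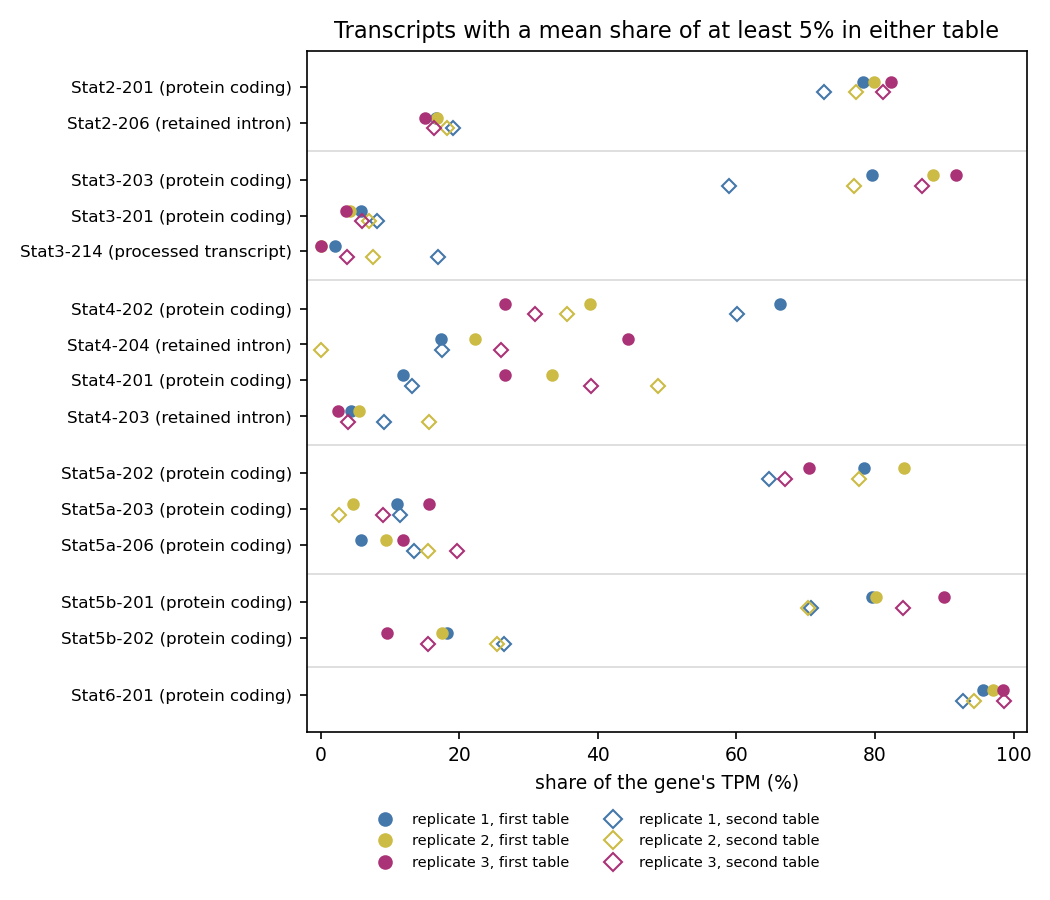
Share of each gene's TPM (%) on the 15 transcripts with a mean share of at least 5% in either table, in the 3 replicate libraries, with circles for the first transcript table and diamonds for the second. Stat6-201 lies above 92% in every library and both tables, whereas the Stat4 forms are spread widely.

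Promoter sequences of 300 bases, from 250 before to 50 after the start, were matched for all 6 genes in a RefSeq table of the GRCm38.p6 build, 9 promoters in all. They were searched on both strands for the STAT half-sites TTC and GAA spaced by 3 or 4 bases, as TTCNNNGAA and TTCNNNNGAA, and for a core of the interferon-stimulated response element, as GAAANNGAAA and the looser GAAANNGAA, which lies within it. Of the 32851 promoters in the table, 8.30%, 6.95%, 3.44% and 8.56% held these motifs in that order. Of the Stat promoters, 2 held a match and 7 held none of the 4 motifs, so most of them gave no letters of this kind in the window. The share of all promoters with any of the 4 motifs was not computed. The 2 of 9 therefore cannot be set against a background, and nothing is read from that count.

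Stat2, the most abundant of the 6, had matches in its promoter at chr10:128270248-128270547, printed with them in capitals. The response element core lies at -222 to -213, read on the reverse strand, and the half-sites spaced by 4 lie at -210 to -201. These positions are counted from the RefSeq start at 0. The window ends before the first base of the annotated Stat2 gene, 128270559, and of Stat2-201, 128270576. Both motifs therefore lie further from the start of Stat2-201 than these positions give.
Stat2 promoter: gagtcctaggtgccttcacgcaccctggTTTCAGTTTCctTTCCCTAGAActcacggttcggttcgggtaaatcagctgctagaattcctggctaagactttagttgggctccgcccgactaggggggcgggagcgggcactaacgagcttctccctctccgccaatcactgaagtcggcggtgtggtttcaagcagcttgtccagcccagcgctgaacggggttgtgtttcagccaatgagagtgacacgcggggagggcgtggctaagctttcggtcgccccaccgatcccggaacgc
The match describes the letters and not a bound site.

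Stat4 has a promoter for each of its coding forms. The outer promoter at chr1:51986898-51987197, by the start of Stat4-202, held none of the motifs, and the inner promoter at chr1:52007990-52008289, by the start of Stat4-201, held the response element core at -97 to -88. They are printed in full so that the outer and inner starts can be set side by side, with the match in capitals.
Stat4 outer promoter: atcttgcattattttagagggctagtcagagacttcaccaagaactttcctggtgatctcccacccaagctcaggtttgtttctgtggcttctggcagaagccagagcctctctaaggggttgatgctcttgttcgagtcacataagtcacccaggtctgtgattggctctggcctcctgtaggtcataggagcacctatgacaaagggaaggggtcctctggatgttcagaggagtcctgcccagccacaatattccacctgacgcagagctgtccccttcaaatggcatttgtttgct
Stat4 inner promoter: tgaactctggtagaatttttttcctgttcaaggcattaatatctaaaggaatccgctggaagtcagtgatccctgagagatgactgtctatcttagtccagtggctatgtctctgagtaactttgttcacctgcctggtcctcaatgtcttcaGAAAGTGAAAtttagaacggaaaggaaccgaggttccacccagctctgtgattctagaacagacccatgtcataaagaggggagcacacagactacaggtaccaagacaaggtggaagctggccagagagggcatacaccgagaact
The outer Stat5b promoter at chr11:100850532-100850831 was 82.7% G and C and the inner one at chr11:100822521-100822820 was 47.3%, against a median of 52.7% over all promoters.

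The 6 Stat genes were then set beside the genes they work with, in 10 lists of 144 genes in all. Some stand in several lists, such as the targets Pim1 and Bcl2l1 of Stat3 and Stat5 and Il4ra of Stat3 and Stat6. Each was counted once in that total. Of the 120 list genes tested, 109 or 90.8% differed between the libraries, where 70.4% of all tested genes did. Among genes with a mean of at least 100 counts that share was 77.6%, and the list genes were not matched for counts. Of the same 120 genes, 71 both differed and were highest in replicate 3 in CPM, where 28.9% of all tested genes were both. These lists were drawn up with earlier results of these data known, and the counts are a description.

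Cytokines that activate STAT proteins were mostly low. Of 22 genes, 9 reached 1 TPM in every library, and the list median was 0.74, 0.19 and 0.36 TPM in replicates 1, 2 and 3. The highest were Ebi3, a subunit of interleukin-27, at 82.0 ± 8.60 TPM, Il15 at 39.9 ± 21.2 TPM and the macrophage growth factor Csf1 at 33.8 ± 21.5 TPM, and Il21 had no count in any library. None of these RNAs exceeded the mean of Stat2. Csf1 was 185, 59.0 and 238 CPM in replicates 1, 2 and 3, a 4.04-fold range, which is wider than that of any Stat gene. Of the 14 tested cytokines, 9 were highest in replicate 1 and 4 in replicate 3 in CPM, or 64.3% and 28.6%. Over all tested genes the shares were 29.5% and 38.0%. With total counts the cytokine numbers were the same, against 48.6% and 22.6% of all tested genes.

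Most receptor chains and all kinases were expressed. Of 29 receptor chains, 20 reached 1 TPM in every library, led by the common gamma chain Il2rg at 150 ± 55.6 TPM, Il10rb at 109 ± 23.1 TPM and the interferon receptor chain Ifnar2 at 62.7 ± 9.71 TPM, while Prlr had no count. Il2rg was the only chain above the mean of Stat2. The 4 Janus kinases were all expressed, with Jak1 at 38.1 ± 8.35 TPM, Jak2 at 26.3 ± 9.80 TPM, Tyk2 at 25.2 ± 8.79 TPM and Jak3 at 7.14 ± 1.41 TPM. Each of these kinases differed between the libraries and was highest in replicate 3 in CPM, at 286, 234, 217 and 44.4 CPM for Jak1, Jak2, Tyk2 and Jak3, where 28.9% of tested genes were both. With total counts 3 of the 4 were highest in replicate 3, as 22.6% of tested genes were.

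Nuclear partners of the STAT proteins were expressed throughout, with 13 of 13 genes at 1 TPM or more in every library. Junb, an AP-1 factor, had 248 ± 50.9 TPM, Cebpb had 52.1 ± 19.0 TPM and the nuclear pore gene Ranbp2 had 35.0 ± 8.36 TPM, against 7.50 ± 1.08 TPM for the importin Kpna1, the lowest. Of the inhibitors, 17 of 19 reached that level. Socs3, which blocks receptors that signal through Stat3, led with 188 ± 57.5 TPM, followed by the phosphatase Ptpn6 at 125 ± 20.8 TPM and Usp18, which blocks the interferon receptor, at 105 ± 53.1 TPM. Socs2 was the lowest at 0.187 ± 0.0651 TPM. Socs3 was the only inhibitor above the mean of Stat2.

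**Figure D4:**
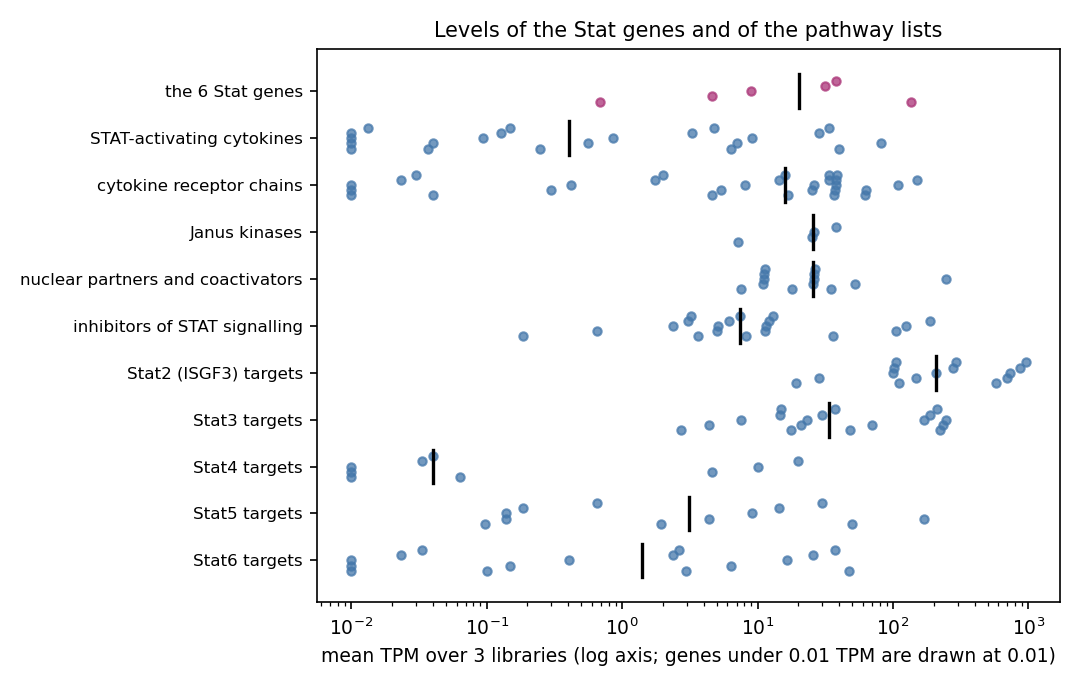
Mean TPM over 3 libraries (log axis) of the 6 Stat genes (top row) and of the genes in each of the 10 pathway lists, with the median as a bar. The targets of Stat2 lie highest, and many targets of Stat4 and Stat6 lie under 1 TPM.

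Known targets of Stat2 in ISGF3 were the highest of the lists. All 15 reached 1 TPM in every library, and 9 exceeded the mean of Stat2. Ifit2 had 959 ± 392 TPM, Rsad2 873 ± 487 TPM and the interferon regulatory factor Irf7 729 ± 274 TPM, and the lowest, Oas2, had 19.1 ± 6.20 TPM. The median of the list was 1.39, 1.51 and 1.64 times the Stat2 level in replicates 1, 2 and 3.

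All 15 Stat2 targets differed between the libraries and were highest in replicate 3, as Stat2 itself was. Of all tested genes 28.9% were both in CPM. Replicate 3 was the highest for all 15 in CPM by TMM, DESeq2 and total counts, in the deposited TPM and in TPM over coding genes. Across all tested genes 38.0%, 36.9%, 22.6%, 51.6% and 24.1% were highest in replicate 3 in that order of scalings. In the second transcript table, 15 of the 15 were highest in replicate 3 in CPM by TMM, where 52.2% of tested genes were, and 14 of the 15 in TPM over coding genes, where 21.1% were. In the TPM that table holds as deposited, 4 of the 15 were, where 2.18% of tested genes were. In replicate 3 the median deviation of the list was 0.48 on the log2 scale, against 0.01 for all tested genes, and that of Stat2 was 0.46.

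Stat3 targets were also expressed in full, with 18 of 18 at 1 TPM or more and a median of 31.0, 31.3 and 41.4 TPM. Junb, Fcgr1 and the survival gene Mcl1 led with 248, 235 and 221 TPM, and the lowest, Cebpd, had 2.72 ± 0.693 TPM. All 18 differed between the libraries, as 70.4% of tested genes did and 77.6% of those with a mean of at least 100 counts. In CPM 12 of them were highest in replicate 3, with total counts 10, and in TPM over coding genes 9, or 66.7%, 55.6% and 50.0%. Over all tested genes the shares in these scalings were 38.0%, 22.6% and 24.1%. Stat3 was within its targets' range, and the list median was 1.08, 1.18 and 1.07 times its level.

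Targets of Stat4, Stat5 and Stat6 were lower. Of 9 Stat4 targets, known mainly from T and NK cells, 3 reached 1 TPM, namely the protease Furin at 20.0 ± 6.06 TPM, Hlx at 10.1 ± 0.739 TPM and Il12rb2 at 4.65 ± 1.76 TPM, and Il18r1 had 2 counts in replicate 2 and none elsewhere. Of 12 Stat5 targets, 7 reached 1 TPM, led by the kinase Pim1 at 169 ± 52.8 TPM, Irf8 at 49.9 ± 5.49 TPM and Bcl2l1 at 30.0 ± 10.6 TPM, with Gfi1 lowest at 0.0967 ± 0.0252 TPM.

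Of 16 Stat6 targets, 8 reached 1 TPM although Stat6 was the second most abundant Stat RNA. Cd36, a scavenger receptor, had 47.2 ± 9.88 TPM and was the only target above the mean of Stat6, followed by Il4ra at 37.4 ± 6.90 TPM and Mrc1 at 25.6 ± 9.58 TPM, and Arg1, Cdh1 and Fcer2a shared the lowest mean, 0.00667 TPM. The list median was 0.0236, 0.0341 and 0.0309 times the Stat6 level. Of the 11 tested Stat6 targets, 3 were highest in replicate 3 in CPM and 2 with total counts, or 27.3% and 18.2%, near the 38.0% and 22.6% of all tested genes. RNA levels do not tell how much of any STAT protein was phosphorylated or bound to DNA.

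**Figure D5:**
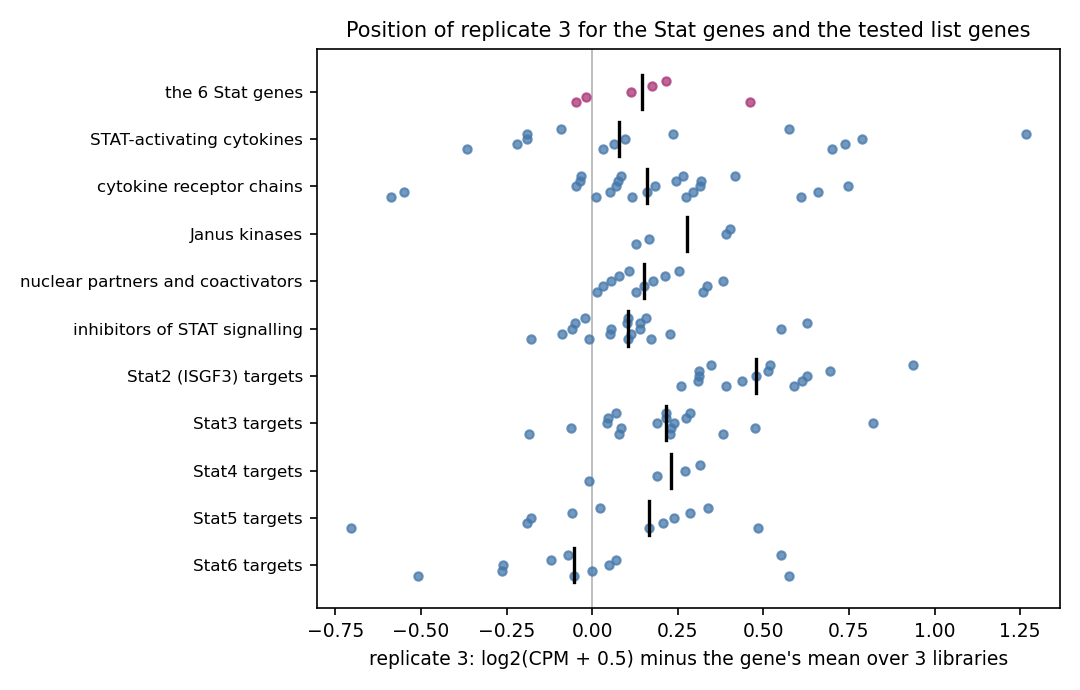
Position of replicate 3 relative to each gene's mean over the 3 libraries, in log2(CPM + 0.5), for the Stat genes (top row) and the tested genes of each pathway list, with the median as a bar. All 15 Stat2 targets lie to the right of 0, with a median of 0.48, and the median of the Stat6 targets lies at -0.05.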

How the data were processed

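The members and gene lists were chosen with earlier results of these data known. The authors' deposited files hold 1 gene table and 2 transcript tables per library, and their notes name mm10 and GENCODE M21. The gene and first transcript tables have the column layout of RSEM and the second transcript table that of kallisto, but no source used here names the quantifier, the aligner or how strand was handled. Expected counts, which are estimated and need not be whole, were deposited by the authors without normalisation. TPM was deposited by the authors over every indexed feature, short RNAs included. The posterior SD of each count and the bounds of each TPM, recorded here as a signal that is never negative, were deposited by the authors in the gene and first transcript tables.

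Counts were rounded for tests. Library sizes and the biological coefficient of variation came from edgeR 4.0.16 (TMM, intercept-only fit) and, as an alternative, DESeq2 1.42.0 size factors. The heterogeneity chi-square had 2 degrees of freedom and covered counting error only. A count of 0 allows up to 0.0551 to 0.0625 CPM (3 counts of the total). Scripts for tests over all genes were tested on simulated data. Coding sequences of the leading transcripts were aligned globally with Biopython 1.88, in place of the planned protein alignment, for which no table was used here.

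Named were all 6 Stat genes, the 3 highest and the lowest of each list by mean TPM, each Janus kinase, the 2 pathway genes nearest to each Stat gene, transcripts with a mean share of at least 5% in either table, and the extreme markers, of which that of B cells is not reported here. Alternatives were other scalings, tables, pseudocounts and filters, and each replicate left out in turn.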

Additional observations from a re-analysis of the deposited data

How the results depend on the processing

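The order of the 6 Stat genes was the same in the other scaling, pseudocount and table tried and without any 1 replicate, while absolute levels depended on what TPM was taken over. Rescaled to protein-coding genes, mean levels became 417 TPM for Stat2, 119 for Stat6, 97.3 for Stat3, 28.0 for Stat5b, 14.3 for Stat5a and 2.09 for Stat4. In the second transcript table they were 54.5, 15.6, 14.9, 3.52, 2.05 and 0.266 TPM for the same genes, since coding genes held 9.70% to 19.6% of its TPM. That table gave mean shares of 77.0% for Stat2-201, 74.2% for Stat3-203, 69.9% for Stat5a-202, 75.1% for Stat5b-201 and 95.2% for Stat6-201, against 80.2%, 86.6%, 77.7%, 83.2% and 97.1% in the first. With a minimum of 5 TPM in place of 1, expressed genes were 5 of the cytokines, 10 of the inhibitors and 5 of the Stat6 targets. Without replicates 1, 2 and 3 in turn, 4, 5 and 5 of the 6 Stat genes were called. Of all tested genes 7250, 7359 and 7106 were then called, or 53.5%, 53.1% and 50.7%, against 70.4% with all libraries. Stat2 levels were 107 to 154 TPM with a replicate left out. Stat4 was called with all libraries but had too few counts to be tested at a mean of at least 100. With no filter on low counts 10193 of 22412 genes were called, or 45.5%, and the same 5 Stat genes. No paired analysis was possible because there is 1 group. Depth limits Stat4 and its transcripts most, with 72.0 to 134 counts a library.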
